A study of Mus musculus with 6 samples.

Results

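Rpl22 and Rpl22l1 encode paralogous ribosomal proteins that take the same place in the large subunit of the cytosolic ribosome. They are described here as 2 of the 55401 genes in each of the tables for 4 h and 8 h of dTAG-13, found by their gene symbols. The pair was chosen by its values at 8 h, where earlier results on these data had the paralogues moving in opposite directions. Values at 8 h are therefore given as a description and without a test.

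Ribosomal protein eL22 is one of the few ribosomal proteins that mammalian cells can live without, and in mice its loss mainly affects the development of T cells. The paralogue eL22L1 can replace it in the ribosome. In mouse cells Rpl22 protein binds the Rpl22l1 RNA and keeps its level low, so that Rpl22l1 increases where Rpl22 is lost. Both proteins also bind RNA outside the ribosome, and in human cells RPL22 is known for binding a small RNA of the Epstein-Barr virus.

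The data comprise nascent RNA from iMEF cells, immortalised mouse embryo fibroblasts. The cells carried floxed Ash2l alleles and Cre-ER, and exon 4 of the endogenous gene had been deleted in all of them, the untreated cells included. They lived on FKBP-HA2-ASH2L, a human ASH2L fused to FKBP-F36V and brought in with a lentivirus, and cells of this kind were grown from single clones. Treatment with dTAG-13 brings the tag together with cereblon, part of a ubiquitin ligase, and the fusion protein is then degraded. ASH2L belongs to the shared core of the enzymes of the KMT2 family, which place methyl groups on lysine 4 of histone H3. The 6 samples form 3 groups of 2: untreated cells, 4 h of dTAG-13 and 8 h of dTAG-13. Cells were labelled with an ethynyl nucleoside for 2 h, and labelled RNA was captured, poly-A selected and sequenced. By the paper's account, 4 h and 8 h name the middle of the labelling window and not its end. The question was whether transcription responds early to the loss of ASH2L.

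Both genes are protein coding. Rpl22 (ENSMUSG00000028936) lies on chromosome 4 from 152325742 to 152334071 on the plus strand, and Rpl22l1 (ENSMUSG00000039221) on chromosome 3 from 28805436 to 28807424, also on the plus strand (GRCm38, GENCODE M21). The 3′ end of Rpl22l1 overlaps the antisense gene Gm33051, which was at 0 in all 6 libraries. The coding sequences of the first listed protein-coding transcripts, 387 bases for Rpl22 and 369 for Rpl22l1, were identical at 259 of 369 aligned bases (70.2%). The processed pseudogene Rpl22-ps1 on chromosome X was identical to the Rpl22 coding sequence at 366 of 376 aligned bases (97.3%).

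The most similar stretch of 90 coding bases without gaps in all 3 sequences is printed to show how far reads of these genes can be told apart. Capitals mark the 23 bases at which the paralogues differ from each other, and in the pseudogene the 1 base at which it differs from Rpl22. The stretch covers coding bases 75 to 164 of Rpl22 and 60 to 149 of Rpl22l1.
Rpl22: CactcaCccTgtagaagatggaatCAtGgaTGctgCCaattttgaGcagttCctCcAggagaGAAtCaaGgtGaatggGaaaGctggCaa
Rpl22l1: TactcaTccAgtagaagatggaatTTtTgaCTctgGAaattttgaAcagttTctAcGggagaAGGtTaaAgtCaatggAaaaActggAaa
Rpl22-ps1: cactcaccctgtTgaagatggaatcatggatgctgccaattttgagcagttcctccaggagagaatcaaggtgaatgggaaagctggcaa
The longest run shared by both coding sequences had 26 bases, and it is printed because it sets how short a read must be to fit both genes.
shared run: ttctccaaaaggtatttgaaatatct
No annotated transcript of Rpl22 shared a stretch of 30 bases with one of Rpl22l1, so an exact read of that length from these transcripts belongs to one paralogue only. Pseudogenes are a different matter: Rpl22 shared stretches of 75 bases with 2 other genes and Rpl22l1 also with 2, all of them processed pseudogenes. The extent differed between the paralogues. Rpl22l1 shared 234 such stretches with Gm15421 and 3 with the other pseudogene, against 18 and 10 for Rpl22. An exact read of 75 bases from such a stretch fits both the parent and the pseudogene.

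The deposited tables hold a mean over the 4 libraries of each comparison and no value for a single library. Whole numbers per library were recovered from the means of both tables, with a single solution for 23634 of 23783 genes above 0 (99.4%), both members among them. The untreated libraries are the pair found in both tables, and a and b only name the libraries of a group. Recovered numbers summed to between 7377689 and 24748979 per library, lowest in the untreated pair, and in 4 of 6 libraries they had been scaled before rounding, so they are not read totals. All 10 fibroblast markers, such as Col1a1 and Vim, had means of at least 100. So did all 4 endothelial markers, with means up to 6121 for Pecam1, against 2 of 4 epithelial and 1 of 4 haematopoietic markers. Summed endothelial markers lay between 9085 and 9670 normalised counts in untreated libraries and between 9846 and 10639 in treated ones, and haematopoietic ones between 278 and 281 and between 287 and 369. Sums of the 7 resolved fibroblast markers overlapped, at 24733 to 27345 untreated, 26796 to 27890 at 4 h and 25318 to 27437 at 8 h. Epithelial sums were 662 to 764 untreated, 575 to 666 at 4 h and 725 to 792 at 8 h. The part of any of these markers in the results was not tested.

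Labelled Rpl22 RNA was nearly level at 4 h and slightly more abundant at 8 h. A scale common to the 6 libraries was set by median ratios, so values on it are relative to other genes. On this scale, Rpl22 stood at 10344 and 10269 normalised counts in untreated cells. After 4 h of dTAG-13 the values were 10766 and 10647, and after 8 h they were 11724 and 11991. Both libraries of each time lay above both untreated ones, and those of 8 h also above those of 4 h. The group means were 10307 ± 52.8, 10706 ± 83.9 and 11858 ± 188 (SD, n = 2 each).

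At 4 h the fitted log2 difference of Rpl22 was 0.05 (SE 0.07), or 1.04-fold, with a 95% interval from 0.925-fold to 1.16-fold (limma-trend, unadjusted p = 0.482, adjusted p = 0.971). Rpl22 was therefore not called at 4 h, and the interval leaves room for a modest difference in either direction. At 8 h the log2 difference was 0.20 (SE 0.07), or 1.15-fold. Of the 9828 genes whose mean was at least 100 in the 8 h table, 2259 (23.0%) had a larger positive difference. At 4 h this held for 3849 of 9424 genes (40.8%). Larger positive differences than that of Rpl22 were thus not rare among these genes, while its own spread between libraries was small. The mean of Rpl22 was at or above those of 98.9% of them at 4 h and 99.2% at 8 h. The comparison is therefore mostly with less abundant genes.

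Labelled Rpl22l1 RNA was lower at both times. In bulk RNA, fewer cells making a transcript and less of it per cell cannot be told apart. Its values were 1130 and 1255 normalised counts in untreated cells, 676 and 807 after 4 h, and 661 and 765 after 8 h. All 4 treated libraries lay below both untreated ones, while the ranges at 4 h and 8 h overlapped. Group means were 1192 ± 88.1 in untreated cells, 742 ± 92.2 at 4 h and 713 ± 74.1 at 8 h (SD, n = 2 each).

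The fitted log2 difference of Rpl22l1 at 4 h was -0.69 (SE 0.21), or 0.620 of the untreated level, with a 95% interval from 0.448 to 0.859. It did not pass the threshold over all genes tested (limma-trend, unadjusted p = 0.00913, adjusted p = 0.966). The untreated libraries are those of the 8 h comparison as well, so the value at 4 h is no independent support for the value at 8 h. At 8 h the log2 difference was -0.74 (SE 0.19), or 0.598 of the untreated level. From 4 h to 8 h the log2 difference was -0.05 for Rpl22l1 (SE 0.21) and 0.15 for Rpl22 (SE 0.07). Only 293 of 9424 genes with a mean of at least 100 had a lower log2 difference at 4 h than Rpl22l1 (3.11%), and 316 of 9828 at 8 h (3.22%).

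**Figure D1:**
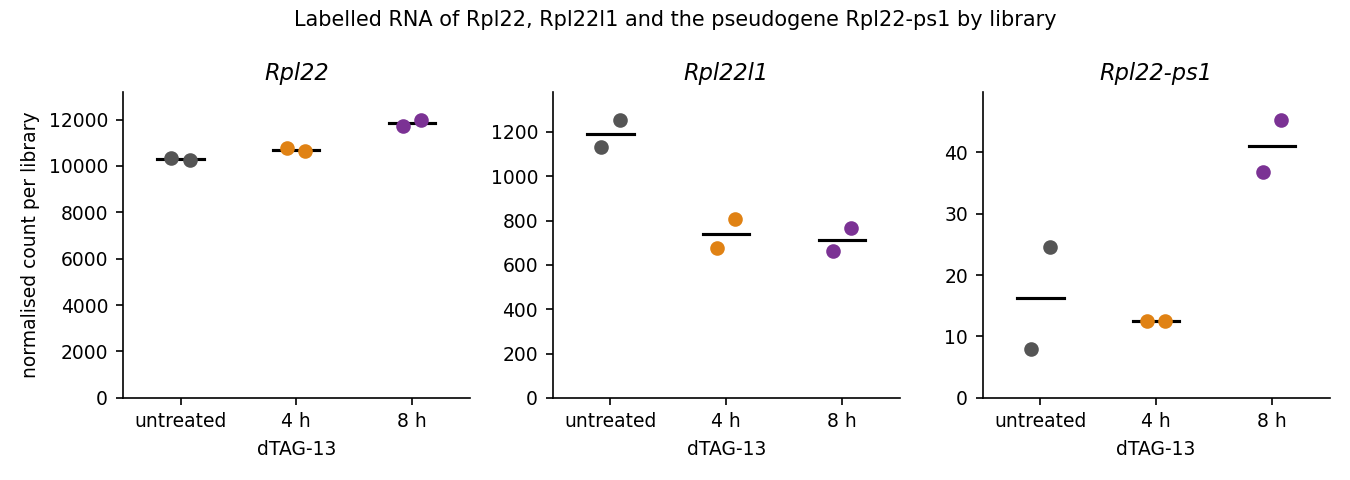
Normalised counts per library on a scale common to the 6 libraries (vertical axes from 0, each gene on its own range) for untreated cells and after 4 h and 8 h of dTAG-13. Points are the 2 libraries of a group and lines their mean. Rpl22 lies between 10269 and 11991, Rpl22l1 drops from 1130 and 1255 to between 661 and 807, and the pseudogene Rpl22-ps1 stays below 46 throughout.

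These values stand against a background in which no gene was called. With 2 libraries per group, an absence of calls does not show that no gene changed. With limma-trend and Benjamini-Hochberg adjustment, 0 of 14556 genes (0%) passed an adjusted p below 0.05 at 4 h, 0 of 15074 at 8 h (0%) and 0 of 15401 between 8 h and 4 h (0%). An unadjusted p below 0.05 was found for 524, 680 and 684 genes. Without an intensity trend in the prior variance, limma called 82 genes at 4 h and 97 at 8 h, most of them with low means. Neither paralogue was among those called at 4 h. Groups that do not overlap are common with 2 libraries against 2. At 4 h both treated libraries lay above both untreated ones in 16.3% of all genes tested and below them in 16.2%, and at 8 h the shares were 17.6% and 16.5%. That the libraries of Rpl22 and of Rpl22l1 do not overlap thus says little by itself.

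Within a library, the ratio of the paralogues does not depend on how libraries are scaled to each other. Rpl22l1 amounted to 10.9% and 12.2% of the Rpl22 number in the untreated libraries. After 4 h of dTAG-13 it was 6.28% and 7.58%, and after 8 h it was 5.63% and 6.38%. These percentages are not corrected for transcript length and are compared between libraries only. Every treated library had a lower ratio than every untreated one, and the ranges at 4 h and 8 h overlapped slightly. Relative to untreated cells the mean log2 ratio was -0.74 at 4 h, or 1.67-fold lower, and -0.95 at 8 h, or 1.93-fold lower. SDs between libraries were 0.114, 0.191 and 0.127 in the 3 groups (n = 2 each) and are imprecise. The pair was chosen by its values at 8 h, so the ratio there is a description and no test. The value at 8 h is made up of the log2 differences of -0.74 for Rpl22l1 and 0.20 for Rpl22.

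**Figure D2:**
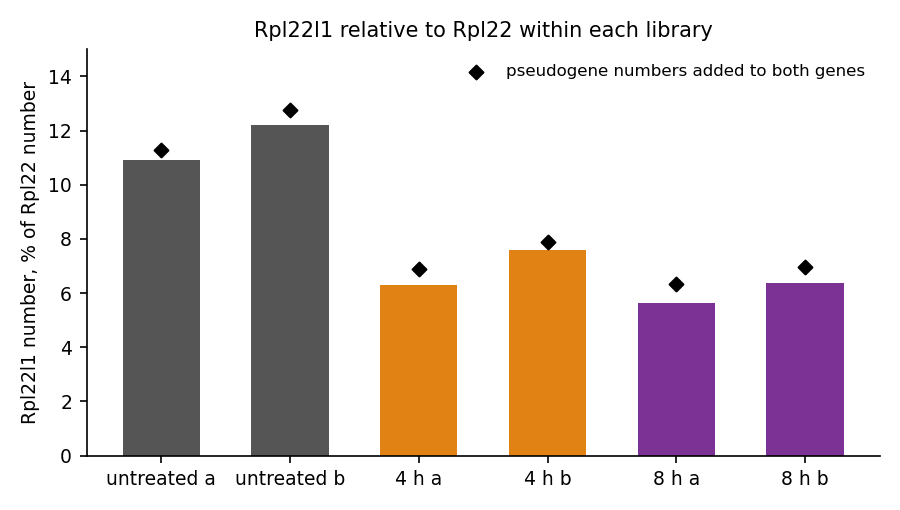
Rpl22l1 number as a percent of the Rpl22 number in each of the 6 libraries (bars, axis from 0). Diamonds give the same percent after the numbers of pseudogenes sharing at least 30 bases with a gene were added to that gene. The untreated libraries are at 10.9% and 12.2%, and the 4 treated ones between 5.63% and 7.58%.

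Reads from pseudogenes could have been assigned to the parents or the other way round. Annotated pseudogenes sharing at least 30 bases with Rpl22 held numbers between 0.775% and 1.25% of the Rpl22 number, and those of Rpl22l1 between 4.35% and 13.7% of the Rpl22l1 number. The largest contributor for Rpl22l1 was Gm15421, a transcribed processed pseudogene, whose recovered numbers were 30 and 36 without treatment, 53 and 48 after 4 h, and 139 and 39 after 8 h. Such numbers also follow the differing sums of the libraries. With pseudogene numbers added to both parents, the ratio was 11.3% and 12.8% in untreated cells, 6.91% and 7.88% at 4 h, and 6.33% and 6.98% at 8 h. Untreated and treated libraries thus remained apart with these numbers added. Adding them covers reads of a parent that were assigned to a pseudogene. Whether pseudogene reads were assigned to a parent was not tested.

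The pseudogene Rpl22-ps1 lies on chromosome X from 8038611 to 8038996 on the minus strand. It had 7.98 and 24.5 normalised counts in untreated cells, 12.6 and 12.6 at 4 h, and 36.9 and 45.3 at 8 h. Both libraries at 8 h were above the other 4. The log2 difference at 8 h was 1.47 (SE 1.18) and did not pass (limma-trend, unadjusted p = 0.25, adjusted p = 0.898). At 4 h it was -0.16 (SE 1.56, adjusted p = 0.999 with limma-trend). Rpl22-ps1 differs from Rpl22 at only a few bases, and whether its reads came from Rpl22 was not tested.

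Among the other cytosolic ribosomal protein genes, most members lay slightly below 0 at both times. Of 79 listed genes of the large and small subunit, 62 were tested: 2 had means under 10, and 15 highly expressed ones had several solutions for their numbers. Without Rpl22, 42 of 61 lay below 0 at 4 h, with a median log2 difference of -0.08, and 46 of 61 at 8 h, with a median of -0.10. The medians over all genes tested were -0.00385 and 0.00614. No listed gene was called at either time. At 8 h, 23 of the 61 lay below both untreated libraries and 8 above them, against 16.5% and 17.6% of all genes tested. At 4 h 16 lay below and 2 above, against 16.2% and 16.3%. An unadjusted p below 0.05 was found at 8 h for 13 lower and 1 higher, against 2.26% and 2.25% of all genes, and at 4 h for 4 lower and 1 higher, against 1.82% and 1.78%. The counts by unadjusted p rested on the intensity trend. Without it, 0 genes of the list had such a p at either time. Over all genes tested, the number with such a p went from 680 to 849 at 8 h without the trend. At 4 h it went from 524 to 740. The counts for the list also changed when single libraries were left out.

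Rpl22l1 had the lowest log2 difference of the 63 ribosomal protein genes at both times, counting it with the 62. Other paralogues outside the list were not counted. Of these, Rpl39l was lower than Rpl22l1 at 8 h, at -1.13 (SE 0.86) with a mean of 55.0. The next lowest of the 63 was Rpl15 at 4 h, at -0.50, and Rpl10a at 8 h, at -0.45. Rpl22 was the eleventh highest at 4 h and the third highest at 8 h, after Rps28 at 0.22 and Rpl27a at 0.21. In the large subunit, Rpl10a had 845 and 1220 normalised counts in untreated cells and 757 and 730 at 8 h. Rpl5, which carries 5S rRNA into the ribosome and can bind MDM2, had 3530 and 3695 in untreated cells and 2817 and 3008 at 8 h (log2 difference -0.31, SE 0.11, limma-trend adjusted p = 0.892). In the small subunit, the lowest at 8 h were Rps4x at -0.40 and Rps25 at -0.39, and the highest were Rps28 at 0.22 and Rpsa at 0.17. At 4 h the small subunit ran from Fau at -0.33 and Rps6 at -0.29 to Rps28 at 0.07 and Rps19 at 0.18. Among large subunit genes with means of at least 100, the lowest at 4 h after Rpl22l1 were Rpl15 at -0.50 and Rpl10a at -0.37, and the highest were Rpl8 at 0.16 and Rpl27a at 0.26.

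**Figure D3:**
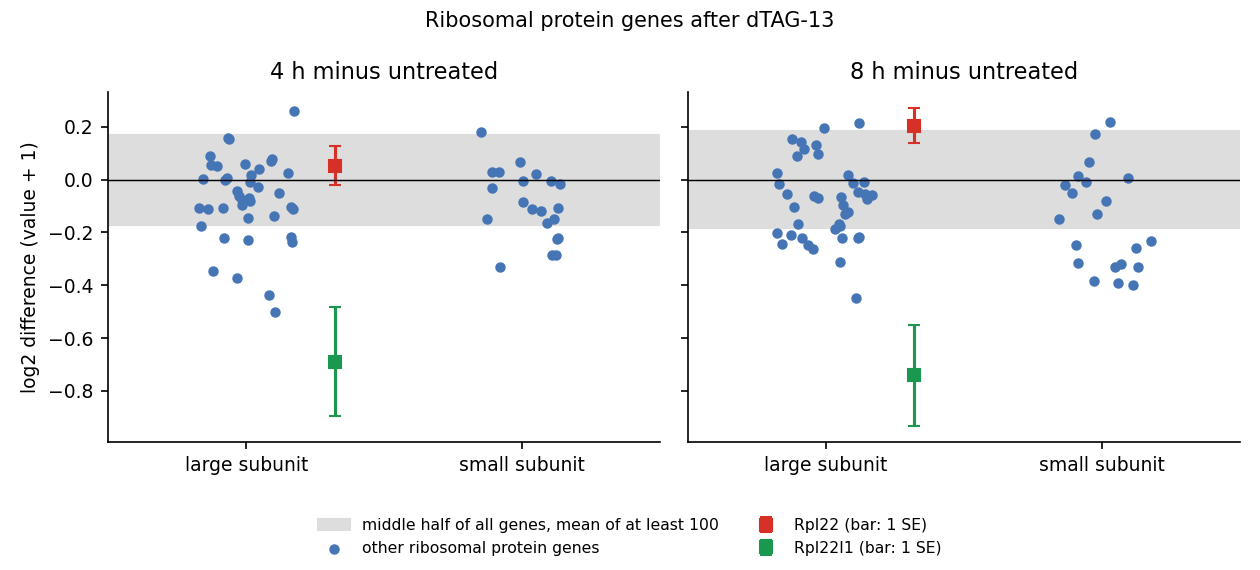
Fitted log2 difference of each tested ribosomal protein gene at 4 h and at 8 h against untreated cells, by subunit (points), with Rpl22 and Rpl22l1 as squares with bars of 1 SE. The grey band is the interquartile range of genes with means of at least 100. Rpl22l1 lies below every other point, at -0.69 and -0.74, and Rpl22 lies at 0.05 and 0.20. Other paralogues outside the list, such as Rpl39l, are not shown.

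Other ribosomal protein paralogues were compared in the same way. Of 8 pairs, 4 had values in both genes that allowed a ratio. Rpl3l and Rpl10l, forms best known from muscle and testis, had numbers of at most 2 in any library, and the numbers of Rpl7 and Rps27 were not resolved. Their paralogues Rpl7l1 and Rps27l had log2 differences of -0.06 and -0.00 at 4 h and of -0.20 and -0.06 at 8 h. Rpl3 stood at -0.23 and -0.20, and Rpl10 at -0.05 and -0.18.

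Rpl36al amounted to 2.91% and 1.5% of Rpl36a without treatment, to 2.27% and 1.65% after 4 h, and to 3.16% and 1.68% after 8 h. Rps4l amounted to 1.35% and 0.627% of Rps4x without treatment, to 1.44% and 0.489% after 4 h, and to 0.600% and 2.32% after 8 h. The groups of both pairs overlapped. Rpl39l, a paralogue known from testis, amounted to 0.480% and 0.969% of Rpl39 without treatment, to 0.566% and 0.479% after 4 h, and to 0.382% and 0.266% after 8 h. Its 8 h libraries lay below the untreated ones, with Rpl39l numbers between 35 and 72 per library. Relative to untreated cells the mean log2 ratio of Rpl39l to Rpl39 at 8 h was -1.07, against -0.95 for Rpl22l1 to Rpl22. Replicate SDs of the untreated log2 ratio were 0.675, 0.772 and 0.707 for these 3 pairs, against 0.114 for Rpl22l1 and Rpl22. Ratios of the other pairs were thus much less precise.

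**Figure D4:**
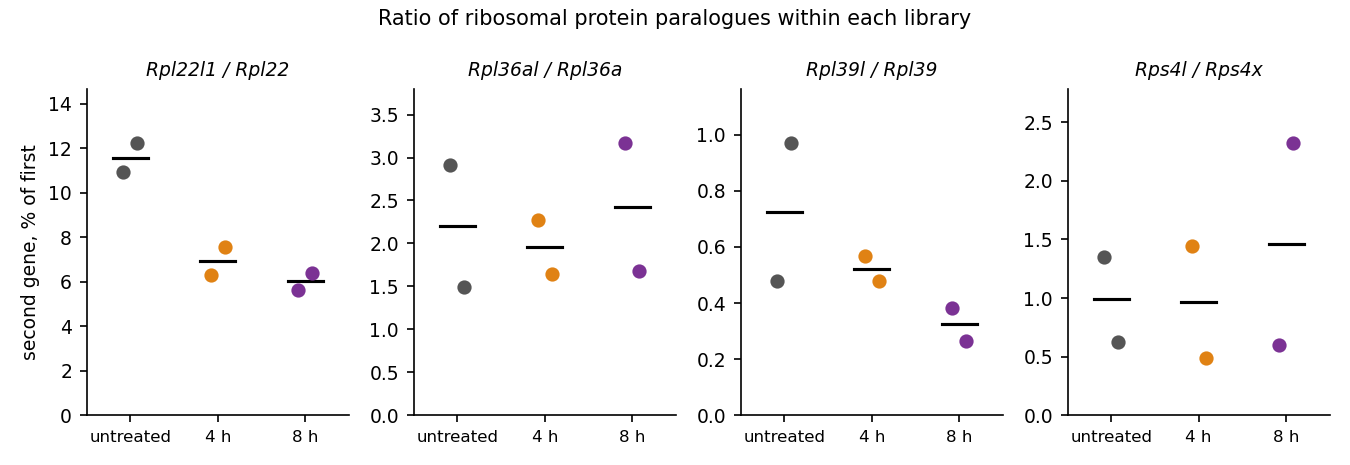
The second gene of each pair as a percent of the first within each library (vertical axes from 0, each pair on its own range). Points are the 2 libraries of a group and lines their mean. The Rpl22l1 to Rpl22 percent is at least 10.9% in untreated and at most 7.58% in treated libraries, while the Rpl36al and Rps4l pairs overlap between all groups.

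Genes tied to RPL22 or RPL22L1 in the literature were followed as a list of 18, of which 17 were tested and 0 were called at either time. Their median log2 difference was 0.04 at 4 h and 0.01 at 8 h, against -0.00385 and 0.00614 over all genes tested. At 4 h 3 members lay above and 3 below both untreated libraries, against 16.3% and 16.2% of all genes, and at 8 h 3 above and 5 below, against 17.6% and 16.5%. The shares above at both times and the share below at 4 h are near the background. The 5 below at 8 h include Rpl5 and Rpl11, which also belong to the large subunit list, so the lists are not separate. Trp53, whose protein arrests T cells that lack Rpl22 in mice, had 472 and 547 normalised counts in untreated cells and 327 and 388 at 4 h. Its log2 difference was -0.51 (SE 0.27, limma-trend adjusted p = 0.966). At 8 h, Trp53 had 564 and 649 in untreated cells and 315 and 551 in treated cells on the scale of that table (log2 difference -0.54, SE 0.32). The 8 h libraries of Trp53 differed widely from each other.

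The p53 target Cdkn1a, a CDK inhibitor, stood at 0.02 and 0.01 on the log2 scale at 4 h and 8 h, and Mdm2, the ubiquitin ligase for p53, at -0.05 and -0.07. Hnrnpa1, a splicing factor, had 888 and 856 normalised counts in untreated cells and 1180 and 1001 at 8 h (log2 difference 0.32, SE 0.18), and 0.10 at 4 h. Dkc1, the pseudouridine synthase of H/ACA particles, stood at -0.15 and 0.12. Eif2ak2, which encodes the kinase PKR, was at 0.17 and 0.04. Smad2, a mediator of TGF-beta signals, had a log2 difference of 0.13 at 4 h and -0.38 at 8 h (SE 0.19 and 0.20). Mycn was at -0.09 and -0.46 with SEs of 0.61 and 0.88, and Tert, with means of 35.3 and 35.0, was at 0 in 1 of the untreated libraries.

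The neighbourhood of each paralogue was examined for genes with means of at least 100 in both tables. Upstream of Rpl22, Icmt at 18.6 kb had log2 differences of 0.34 (SE 0.36) at 4 h and -0.17 (SE 0.39) at 8 h, Acot7 at 53.9 kb of 0.34 (SE 0.15) and 0.12 (SE 0.14), and Plekhg5 at 210 kb of 0.24 and 0.36. None of these 3 was called. Icmt encodes the methyltransferase of prenylated proteins and Acot7 an acyl-CoA thioesterase.

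The closest neighbour of Rpl22l1 was Eif5a2, a translation factor gene 6.59 kb upstream on the same strand. Eif5a2 had log2 differences of -0.41 (SE 0.41) at 4 h and -0.34 (SE 0.46) at 8 h, with overlapping groups at both times. Further upstream, the kinase gene Tnik at 130 kb stood at -0.46 (SE 0.48) and 0.54 (SE 0.38), and the phospholipase gene Pld1 at 672 kb at -0.07 (SE 0.26) and 0.62 (SE 0.30). Downstream, Mecom, a zinc finger regulator gene 1144 kb away, stood at 0.21 (SE 0.14) and 0.26 (SE 0.11), Mynn at 0.23 and 0.13, and Sec62, part of the protein translocation machinery, at 0.06 and 0.04. No neighbour of Rpl22l1 was as low as Rpl22l1 itself, but the SEs of Eif5a2 and Tnik include differences of that size at 4 h, and that of Eif5a2 at 8 h as well.

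**Figure D5:**
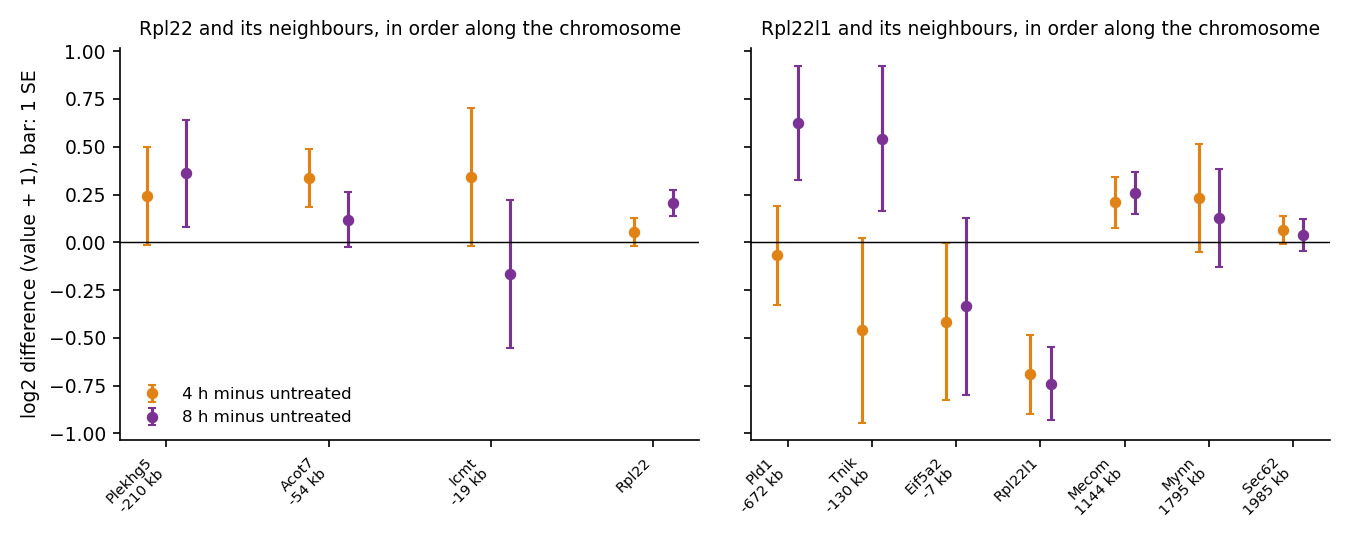
Fitted log2 differences at 4 h and 8 h against untreated cells (points, bars of 1 SE) for Rpl22 with 3 upstream neighbours and for Rpl22l1 with 3 neighbours on each side, in their order along the chromosome with the distance in kb and not to scale. Rpl22l1 stands at -0.69 and -0.74, Eif5a2 at -0.41 and -0.34, and the genes on the other side of Rpl22l1 above 0.

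Across the 6 libraries, log2 values of Rpl22 and Rpl22l1 correlated with Pearson's r = -0.71, a description over 3 groups of 2 libraries. The pair was chosen for opposite changes at 8 h, so a negative r follows largely from that choice. Of 9914 genes with a mean of at least 100, those most like Rpl22 over the 6 libraries were Ntmt1, an N-terminal methyltransferase gene, Pappa, which encodes a protease of IGF-binding proteins, the homeobox gene Hoxb4, Fbxo25 and Arf5, with r from 0.97 to 1.00. Pappa had 3784 and 3783 normalised counts in untreated cells, 3854 and 3916 at 4 h, and 4236 and 4288 at 8 h, a pattern of small spread like that of Rpl22. Ntmt1 had 202 and 187, then 224 and 228, then 334 and 369.

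The genes most like Rpl22l1 were Rpl28, 4932438A13Rik, Tmem258, a subunit gene of the oligosaccharyltransferase, Zfp574 and Wasl, an activator of actin nucleation, with r from 0.97 to 1.00. Rpl28, itself a gene of the large subunit, had 4317 and 4424 normalised counts in untreated cells, 3568 and 3868 at 4 h, and 3616 and 3749 at 8 h. Its log2 differences were -0.24 (SE 0.11) and -0.24 (SE 0.10), smaller than those of Rpl22l1. Likeness over 6 libraries in 3 groups is a description only.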

How the data were processed

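The authors trimmed reads with Trim Galore, aligned them with STAR to mm10 (GENCODE M25 annotation), counted them with featureCounts, scaled them with ERCC spike-in RNA and compared groups with DESeq2. The submitters' processing notes also name BWA, SAMtools, MACS2 and deepTools. The library kit differs between labels and methods, and whether strand was used in counting is not stated in them. The deposited signal averages, over the 4 libraries of a table, counts after division by size factors. Deposited fold changes, standard errors, p and q are the authors' own comparisons and were not used, nor were the 4 lists of calls.

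Whole numbers per library were sought that give the deposited means of both tables, and checked on simulated data. In 4 libraries they show gaps left by scaling before rounding, so no count model was used. Values were multiplied by the size factors behind the means, or by median ratios for the common scale, filtered at a mean of at least 10, and fitted as log2(value + 1) with limma 3.58.1 in R 4.3.3 (limma-trend, Benjamini-Hochberg adjustment, threshold 0.05). A log2 difference on this scale understates changes of low genes. Median ratios remove a difference shared by most genes. With the size factors behind the means, the median log2 difference over all genes tested was -0.00385 at 4 h and 0.00614 at 8 h. Whether those factors carry the spike-in scaling was not tested, so a change common to all labelled RNA is not described. Whether samples of a group are separate cultures is not in the labels. A p-value then covers only the spread between the samples at hand, possibly a technical one.

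The members and the gene lists were chosen with earlier results of these data known. Named were both paralogues, other symbols starting with Rpl22, called list members, the 2 largest increases and decreases per list and time with a mean of at least 100, the genes of 8 paralogue pairs, up to 3 neighbours a side and the 5 genes most alike per paralogue. Other tied genes, Rpl28 differences, Gm15421 and Gm33051 were named after their values were seen. Positions and transcripts came from GENCODE M21 on GRCm38, since the tables hold no positions. The downstream neighbours of Rpl22 are not reported here. Alternatives were other pseudocounts (0.1 and 8), other filters, equal library sums, 1 fit over 6 libraries, no intensity trend, and leaving out each library.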

Additional observations from a re-analysis of the deposited data

How the results depend on the processing

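The differences of Rpl22 and Rpl22l1 kept their direction in all 11 alternatives at each time, and at 4 h neither was called in any of them. Most alternatives could not have changed the direction. Filters and the intensity trend leave the difference itself as it is. Treated and untreated libraries did not overlap for either gene, so other pseudocounts or leaving out a library could not reverse it. Leaving out 1 library at a time, Rpl22l1 ranged from -0.81 to -0.56 on the log2 scale at 4 h and from -0.85 to -0.63 at 8 h, and Rpl22 from 0.04 to 0.06 at 4 h and from 0.19 to 0.22 at 8 h. Over the other alternatives Rpl22l1 lay between -0.69 and -0.68 at 4 h and between -0.74 and -0.73 at 8 h. The log2 difference of the ratio at 8 h ranged from -1.03 to -0.86 without 1 library. Without an intensity trend, 82 genes were called at 4 h and 97 at 8 h, in place of 0, with median means of 13.9 and 15.4. All other alternatives called 0 genes at both times, and no ribosomal protein gene was called in any. A group left with 1 library was assumed to vary like the other group. No paired analysis was possible because the tables carry no replicate number. The comparison of 8 h with 4 h was fitted once, with no alternative. With 2 libraries per group, a difference of the size of Rpl22l1 did not pass adjustment over all genes.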

Other observations

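Pseudogenes named after ribosomal protein genes with the ending -ps, a set put together after the value of Rpl22-ps1 was seen, numbered 114 among the genes tested at 8 h. Their median log2 difference was 0.20, against 0.00614 over all genes tested, with 32 above both untreated libraries and 11 below, against 17.6% and 16.5% of all genes. Rpl22-ps1 was the tenth highest. At 4 h the median of 108 such pseudogenes was 0.09, with 17 above and 13 below, against 16.3% and 16.2% of all genes. None of them was called, and their reads cannot be told apart from those of the parent genes where the sequences are identical.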
